A study of Mus musculus with 9 samples.

Results

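The 10 genes described here encode the enzymes that hydroxylate and cross-link collagen. They are the prolyl 4-hydroxylase alpha chains P4ha1, P4ha2 and P4ha3, the lysyl hydroxylases Plod1, Plod2 and Plod3, and the lysyl oxidases Lox, Loxl1, Loxl2 and Loxl3. They were chosen by symbol, as members of these 3 enzyme classes, from the 53465 genes of the count table. All 10 were among the 14088 genes tested, although P4ha3 reached the count minimum only through the DPI 72 h libraries.

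Collagen chains are modified before they fold. Prolyl 4-hydroxylase, a complex of alpha chains with the protein disulfide isomerase P4hb, makes the hydroxyproline that keeps the triple helix stable at body temperature. Lysyl hydroxylases make the hydroxylysine from which sugars and cross-links are built, and the secreted lysyl oxidases, which carry copper, oxidize lysine and hydroxylysine side chains so that collagen and elastin fibres become covalently cross-linked. The hydroxylases need oxygen, iron, 2-oxoglutarate and ascorbate, and several genes of both groups are known targets of the hypoxia-inducible factors.

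RNA of mouse adult fibroblasts was sequenced in 9 libraries. A 24 h DPI treatment gave 3 of them, a 72 h DPI treatment 3, and cells labelled Control the other 3. The label DPI is read as diphenyleneiodonium, which blocks flavin-dependent enzymes, because the title of the series concerns the flavin cofactor FMN. No source used here gives the dose, the vehicle, the strain and age of the mice, or when control cells were harvested. DPI and the length of culture therefore cannot be told apart in any comparison, and fewer cells of a type cannot be told apart from less RNA per cell.

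Total counts ranged from 15292736 to 17923656 per library. Ribosomal protein genes took 5.67% of the counts in control replicate 2, a library that differed most from the rest of its group, against 4.2% and 4.26% in control replicates 1 and 3. Whether replicates were separate cultures is not stated, and p-values therefore reflect only library-to-library spread, which may be technical. Among 8 fibroblast markers, Vim was abundant, with a mean of 1939 CPM at 24 h, 2434 CPM at 72 h and 1644 CPM in controls, while Lum and Thy1 had at most 2 counts in any library. The growth factor receptor gene Pdgfrb averaged 56.3 CPM at 24 h, 31.9 CPM at 72 h and 29.9 CPM in controls, Pdgfra 15.8, 8.05 and 8.62 CPM, and Dcn 3.52, 1.12 and 1.32 CPM. Of the 6 fibroblast markers tested, 5 were higher at 24 h than in controls, 1 was higher at 72 h than in controls, and between 72 h and 24 h 1 (Vim) was higher and 4 lower by edgeR. Of all genes tested, 24.7%, 8.56% and 21.3% passed in these 3 comparisons. The part of the marker shifts in the results was not tested. Collagen III, a marker of many fibroblasts, was low, since Col3a1 averaged 5.89 CPM at 24 h, 2.41 CPM at 72 h and 1.86 CPM in controls. The summed level of 6 macrophage markers was at most 4.93 CPM at 24 h, 3.03 CPM at 72 h and 5.30 CPM in controls, and Adgre1 was at 0 throughout. Of these, Cd68 was called lower at 72 h than in controls and than at 24 h (edgeR adjusted p = 0.0375 and 0.0247). Endothelial (5 genes), epithelial (6) and skeletal muscle (5) markers summed to at most 4.10, 6.67 and 1.15 CPM in any library. The epithelial sum was 1.35 to 1.58 CPM at 24 h, 6.44 to 6.67 CPM at 72 h and 1.38 to 2.17 CPM in controls. Its marker Krt8 was called higher at 72 h than in controls and than at 24 h (edgeR adjusted p = 0.0017 and 0.00151). Krt14 was called lower at 24 h than in controls and higher at 72 h than at 24 h (edgeR adjusted p = 0.0141 and 6.17e-04). The endothelial sum was 3.17 to 4.10 CPM at 24 h, 1.10 to 1.85 CPM at 72 h and 1.71 to 1.92 CPM in controls, and its marker Kdr was called higher at 24 h than in controls and lower at 72 h than at 24 h (edgeR adjusted p = 0.0338 and 0.00104). The part of these low markers in the results was not tested. Of 5 chondrocyte markers, Sox9 and Acan carried nearly all of the signal, with a list sum of 124 to 127 CPM at 24 h, 70.8 to 80.6 CPM at 72 h and 45.3 to 47.6 CPM in controls. Of 5 osteoblast markers, Runx2 did so, with a list sum of 53.5 to 57.9 CPM at 24 h, 58.6 to 64.0 CPM at 72 h and 39.6 to 49.2 CPM in controls. The part of these 2 lists in the results was not tested.

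At 24 h Lox, Loxl1 and Loxl2 were higher than in controls, while P4ha2 and Plod3 were lower and the other hydroxylases did not pass the test. At 72 h P4ha1, P4ha2, Plod1, Plod2, Lox and Loxl2 were all above control, with Loxl2 below its 24 h level, while Loxl1 did not pass. At 24 h against control, 3 of the 10 genes rose (Lox, Loxl1, Loxl2) and 2 fell (P4ha2, Plod3) by edgeR's quasi-likelihood test at an adjusted p under 0.05. Over all genes tested 24.7% passed in that comparison, 12.4% higher and 12.3% lower. At 72 h against control, 6 rose (P4ha1, P4ha2, Plod1, Plod2, Lox, Loxl2) and 0 fell (also 0 by DESeq2, by limma voom and at an unadjusted edgeR p under 0.05). Over all genes 8.56% passed there, 4.73% higher and 3.83% lower. Between 72 h and 24 h, 6 were higher (P4ha1, P4ha2, P4ha3, Plod1, Plod2, Lox) and 3 lower (Loxl1, Loxl2, Loxl3), and over all genes 21.3% passed, 10.1% higher and 11.2% lower. Without P4ha3, which entered the test through the group where it was high, 5 of 9 were higher and 3 lower.

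The median log2 fold change of the 10 genes was -0.12 at 24 h against control, 0.50 at 72 h against control and 0.39 at 72 h against 24 h. Over all genes the median was -0.0056, -0.0050 and 0.0019. Without P4ha3, the medians of the other 9 genes were -0.084, 0.43 and 0.33. The 72 h and 24 h comparisons share the control libraries. The count over all genes at 72 h against control, 1206, was 1965 when control replicate 2 was left out and 782, 736 and 801 when DPI 72 h replicate 1, 2 or 3 was. With total counts in place of TMM scaling, its split of 666 higher and 540 lower genes became 543 higher and 716 lower, while the 6 members called were 6 in both. The count of 3001 between 72 h and 24 h was 4729 when control replicate 2 was left out and 1953 when DPI 24 h replicate 3 was.

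**Figure D1:**
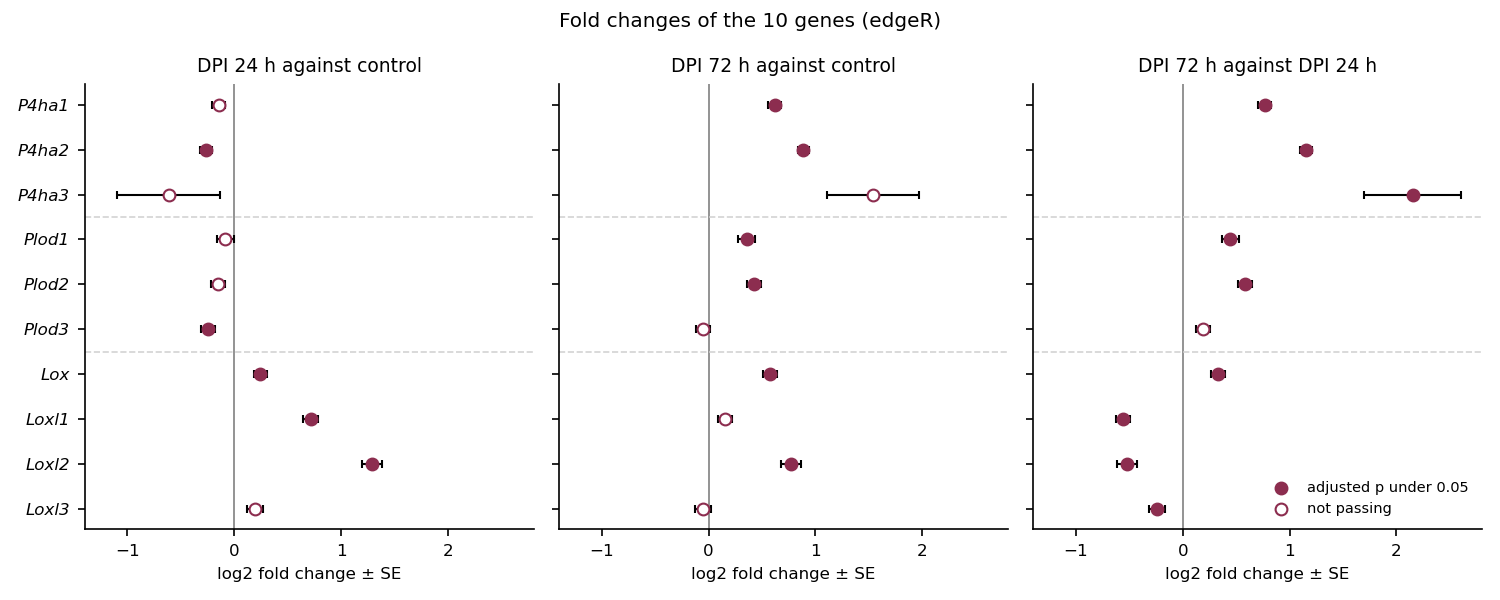
Log2 fold change of each of the 10 genes (points) with its standard error (bars) in the 3 comparisons, from edgeR. Filled points had an adjusted p under 0.05, and dashed lines separate prolyl 4-hydroxylase alpha chains, lysyl hydroxylases and lysyl oxidases. At 24 h against control the largest value was 1.29 for Loxl2, and at 72 h against control P4ha2 had the largest value among called genes, 0.89.

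Levels of different genes were compared as CPM per kb of exonic length. In controls P4ha1 had 49.6 ± 0.98 CPM per kb, Lox 45.8 ± 3.09 and Loxl1 45.6 ± 2.23 (SD, n = 3 each), and the ranges of P4ha1 and Lox, and of Lox and Loxl1, overlapped. These 3 genes were the most abundant of the 10 in every group. Plod3 followed with 24.9 CPM per kb, Plod2 with 20.4, Loxl2 with 15.0, P4ha2 with 12.7, Plod1 with 9.01 and Loxl3 with 7.05, and of these neighbours only Loxl2 and P4ha2 overlapped. P4ha3 was far below, at 0.165 CPM per kb in controls, and was last in every group. At 24 h Loxl1 led with 74.7 ± 2.13 CPM per kb, above Lox with 54.3 ± 1.63 and P4ha1 with 44.8 ± 2.12, without overlap between these neighbours. At 72 h P4ha1 led again with 76.1 ± 3.68 CPM per kb, above Lox with 68.2 ± 2.26 and Loxl1 with 50.8 ± 3.27, again without overlap. Plod2, Loxl2, Plod3 and P4ha2 lay between 22.7 and 28.4 CPM per kb at 72 h, and each overlapped its neighbour in the order. The place of P4ha2 depended on the length used, since its longest transcript is 3060 bases and its merged exons 6239. By the longest transcript it had 48.0 CPM per kb at 72 h and was the fourth of the 10.

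**Figure D2:**
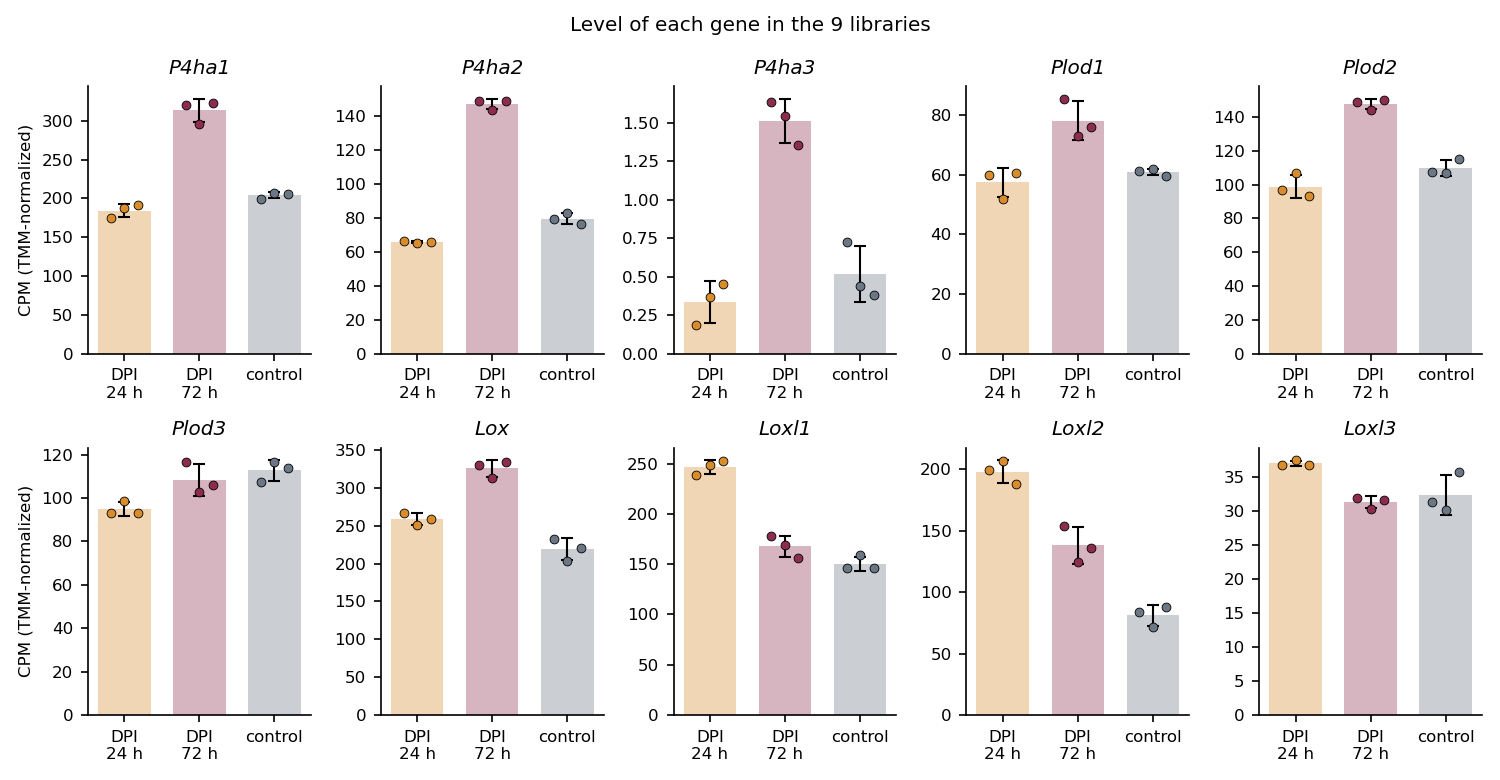
TMM-normalized CPM of each gene in the 9 libraries (points), with the group mean (bar) and SD (error bar, n = 3) for DPI 24 h, DPI 72 h and control. P4ha1 and P4ha2 were highest in the 3 DPI 72 h libraries and Loxl1 and Loxl2 in the 3 DPI 24 h libraries, without overlap between these libraries and the other 6. Each panel has its own axis from 0.

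The prolyl 4-hydroxylase alpha chains hold the catalytic site of the enzyme. P4ha1, the main alpha chain of most cells, lies on the plus strand at chr10:59323296-59373304 (GRCm38), P4ha2 at chr11:54100095-54131665 and P4ha3 at chr7:100285520-100319699, both also on the plus strand. The 250 bases before the RefSeq start of each (GRCm38.p6, plus strand) are shown because P4ha1 and P4ha2 rose at 72 h against control and both are known targets of hypoxia-inducible factor 1. Capitals mark every ACGTG or GCGTG on either strand, the core letters that this factor binds.
P4ha1, chr10:59323046-59323295: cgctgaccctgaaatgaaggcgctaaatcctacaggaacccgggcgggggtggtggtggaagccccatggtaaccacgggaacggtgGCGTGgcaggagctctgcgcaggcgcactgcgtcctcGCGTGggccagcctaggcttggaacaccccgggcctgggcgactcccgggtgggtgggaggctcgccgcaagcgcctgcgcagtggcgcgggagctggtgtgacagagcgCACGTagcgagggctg
P4ha2, chr11:54100674-54100923: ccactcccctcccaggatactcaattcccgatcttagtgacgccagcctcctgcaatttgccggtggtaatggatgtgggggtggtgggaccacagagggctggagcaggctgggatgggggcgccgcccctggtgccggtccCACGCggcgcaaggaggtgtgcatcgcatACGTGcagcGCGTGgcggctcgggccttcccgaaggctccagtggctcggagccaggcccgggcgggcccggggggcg
P4ha3, chr7:100285270-100285519: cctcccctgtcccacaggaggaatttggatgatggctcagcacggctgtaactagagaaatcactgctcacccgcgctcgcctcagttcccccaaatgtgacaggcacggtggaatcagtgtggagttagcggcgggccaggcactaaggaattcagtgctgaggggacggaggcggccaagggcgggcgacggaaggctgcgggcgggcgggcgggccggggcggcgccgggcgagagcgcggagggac
The windows of P4ha1 and P4ha2 each held 1 ACGTG and 2 GCGTG, and that of P4ha3 held neither. The ACGTG of P4ha1 is on the minus strand, 12 to 16 bases before the start, and that of P4ha2 on the plus strand, 74 to 78 bases before it. The window of P4ha2 lies inside the gene as GENCODE draws it, in an intron of a longer transcript. RefSeq windows were at hand for 5 of the 10 genes. That of Plod1 held 1 GCGTG and no ACGTG, and that of Plod3 held 1 ACGTG and 3 GCGTG. In the Plod3 window 208 of the 250 bases lie in GENCODE exons, and in each of the other windows 0 do. Of 12556 such windows of genes tested, 55.8% held at least 1 of these motifs and 11.9% held 3 or more. The GC content of the windows of P4ha1, P4ha2 and P4ha3 was 69.6%, 70.0% and 67.2%, against a median of 60.0% over those windows. A CACGTG holds ACGTG on both strands and counts for 2, and none of the 5 windows had it.

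P4ha1 and P4ha2 were higher after 72 h of DPI than in controls or at 24 h. P4ha1 had 320.9, 295.8 and 323.0 CPM at 72 h, against 199.6, 207.5 and 205.0 CPM in controls. All 3 libraries at 72 h were above every control, and the log2 fold change was 0.62 ± 0.06 (SE, edgeR adjusted p = 1.07e-04). At 24 h P4ha1 had 174.5, 187.0 and 191.2 CPM, all below every control, with a log2 fold change of -0.15 ± 0.06 that did not pass (edgeR adjusted p = 0.107). P4ha1 was 1.70-fold higher at 72 h than at 24 h (log2 0.77 ± 0.06, edgeR adjusted p = 9.81e-06).

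P4ha2 encodes the alpha chain that is abundant in cartilage and endothelium. P4ha2 had 148.4, 143.4 and 148.8 CPM at 72 h, against 79.0, 82.9 and 76.2 CPM in controls. This was a 1.85-fold rise (log2 0.89 ± 0.06, edgeR adjusted p = 4.34e-06). At 24 h it had 66.4, 65.3 and 65.9 CPM, below every control, and it fell by 0.27 ± 0.06 in log2 units (edgeR adjusted p = 0.0055). Between 72 h and 24 h it differed 2.23-fold (log2 1.16 ± 0.06, edgeR adjusted p = 4.14e-07), and the groups were far apart. P4ha2 thus fell at 24 h and rose at 72 h relative to the same controls.

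P4ha3, an alpha chain of low abundance in most tissues, was near the limit of detection. It had 3, 6 and 8 counts at 24 h, 27, 25 and 21 counts at 72 h, and 12, 8 and 6 counts in controls. Summed over a group, this was 0.335 CPM of summed counts at 24 h (95% exact Poisson interval 0.195 to 0.536), 1.5 at 72 h (1.17 to 1.88) and 0.524 in controls (0.342 to 0.768), and these intervals cover counting error only. The 3 libraries at 72 h were above all other 6. The log2 fold change at 72 h against control was 1.54 ± 0.43 and did not pass (edgeR adjusted p = 0.0514). It passed with a stricter filter on low counts (0.0369) and with limma voom (0.0318). Between 72 h and 24 h the log2 fold change was 2.15 ± 0.45 (edgeR adjusted p = 0.0063). In each of these fits P4ha3 reached the count minimum only through the 72 h libraries, where it was high. These calls are therefore given as a description.

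The beta subunit gene P4hb was 1.19-fold higher at 24 h and 1.20-fold higher at 72 h than in controls (edgeR adjusted p = 0.0084 and 0.0149), and its 72 h and 24 h levels differed by 0.012 ± 0.057 on the log2 scale (edgeR adjusted p = 0.91). The summed alpha chains therefore stood at 17.3 to 18.5% of the P4hb level per kb at 24 h, 30.7 to 33.8% at 72 h and 22.9 to 25% in controls. The ranges of the 3 groups did not overlap, with the lowest ratio at 24 h and the highest at 72 h. The percentages rest on merged exons as length. By the longest transcript P4ha2 had 21.5, 48.0 and 25.9 CPM per kb at 24 h, 72 h and in controls, against 10.6, 23.5 and 12.7 by merged exons. Each percentage would then be higher.

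Of the 3 lysyl hydroxylases, Plod1 and Plod2 passed at 72 h against control and Plod3 did not. Plod1, which hydroxylates lysines of the collagen helix, lies on the minus strand at chr4:147909753-147936767, Plod2, which hydroxylates the lysines of the telopeptides, on the plus strand at chr9:92542223-92608428, and Plod3, which also attaches sugars to hydroxylysine, on the plus strand at chr5:136987019-136996648. Plod2 had 148.7, 144.2 and 150.3 CPM at 72 h, against 107.5, 107.0 and 115.3 CPM in controls. It rose by 0.43 ± 0.07 on the log2 scale (edgeR adjusted p = 0.0019), with no overlap. At 24 h it had 97.0, 106.7 and 93.0 CPM, just below the lowest control, and the log2 fold change of -0.15 ± 0.07 did not pass (edgeR adjusted p = 0.117), although it passed without control replicate 2 (-0.17, adjusted p = 0.0464). Plod2 was 1.49-fold higher at 72 h than at 24 h (log2 0.58 ± 0.07, edgeR adjusted p = 1.17e-04).

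Plod1 had 85.6, 73.0 and 76.1 CPM at 72 h, against 61.3, 61.8 and 59.7 CPM in controls. It rose by 0.36 ± 0.08 on the log2 scale (edgeR adjusted p = 0.0172), and the call was lost without control replicate 3 (adjusted p = 0.0615) or DPI 72 h replicate 1 (0.0786), which had the highest level. At 24 h it had 59.8, 52.0 and 60.7 CPM, which overlapped the controls, with a log2 fold change of -0.084 ± 0.080 (edgeR adjusted p = 0.49). The difference between 72 h and 24 h was 0.44 ± 0.08 (edgeR adjusted p = 0.0025).

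Plod3 had 116.8, 102.6 and 106.0 CPM at 72 h, against 107.5, 116.7 and 114.0 CPM in controls, and these ranges overlapped (log2 fold change -0.055 ± 0.066, edgeR adjusted p = 0.69). At 24 h it had 93.2, 98.7 and 93.3 CPM, all below the controls, and it fell by 0.25 ± 0.07 in log2 units (edgeR adjusted p = 0.0205). That call was lost without DPI 24 h replicate 1 (adjusted p = 0.0779) or replicate 3 (0.0731). Its level at 72 h was 0.19 ± 0.07 above that at 24 h and did not pass (edgeR adjusted p = 0.0657), though it did without control replicate 2 (0.0164) and with only the 6 libraries compared (0.0169).

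The strand setting of the counting is not given in the sources used here, so reads of overlapping genes on the other strand cannot be told apart. Znhit1 shares 529 bases, 11.7% of the exonic length, with Plod3, and Htra2 shares 535 bases, 11.6%, with Loxl3. Both had no call in any of the 3 comparisons (edgeR adjusted p from 0.298 to 0.944). Htra2 had 1144 to 1675 counts per library, more than Loxl3, which had 491 to 654. Znhit1 had 457 to 744, against 1524 to 2115 for Plod3. The part of these 2 genes in the counts of Loxl3 and Plod3 was not tested. Gm38391 shares 346 bases with Plod2 and had 28 to 42 counts at 24 h, 63 to 86 at 72 h and 30 to 47 in controls. It rose with Plod2 at 72 h (log2 1.12 ± 0.25, edgeR adjusted p = 0.0175), at counts far below those of Plod2, which had 1585 to 2448 per library. Gm27177 shares 301 bases with Loxl2, had at most 53 counts in a library and had no call. An antisense gene shares 30 bases with Lox.

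Of the 4 lysyl oxidases, 3 rose at 24 h. Lox, the first described member, which cross-links collagen and elastin, lies on the minus strand at chr18:52516067-52529867, Loxl1, needed for elastic fibre renewal in mice, on the minus strand at chr9:58287738-58313186, Loxl2, which cross-links collagen IV among others, on the plus strand at chr14:69609068-69695834, and Loxl3 on the plus strand at chr6:83034173-83052562. Loxl2 had 199.6, 206.3 and 187.9 CPM at 24 h, against 83.8, 71.3 and 87.8 CPM in controls. This was a 2.45-fold rise without overlap (log2 1.29 ± 0.10, edgeR adjusted p = 5.76e-06). At 72 h it had 153.5, 124.2 and 136.2 CPM, still above every control (1.70-fold, log2 0.77 ± 0.10, edgeR adjusted p = 4.73e-04). The 72 h libraries were below every 24 h library, with a log2 difference of -0.52 ± 0.09 (edgeR adjusted p = 0.0026).

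Loxl1 had 238.5, 248.3 and 252.1 CPM at 24 h, against 146.2, 158.7 and 145.8 CPM in controls. It rose 1.64-fold without overlap (log2 0.71 ± 0.07, edgeR adjusted p = 2.88e-05). At 72 h it had 177.5, 169.2 and 156.2 CPM, and the lowest of these was below control replicate 2. The log2 fold change of 0.16 ± 0.07 did not pass (edgeR adjusted p = 0.185), and without control replicate 2 it was 0.20 and passed (0.0326). Its level at 72 h was below that at 24 h by a log2 difference of -0.56 ± 0.07 (edgeR adjusted p = 1.66e-04).

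Lox was higher than in controls at both times, and highest at 72 h. It had 330.1, 313.6 and 333.9 CPM at 72 h, against 232.7, 203.3 and 221.0 CPM in controls, a 1.49-fold rise (log2 0.57 ± 0.06, edgeR adjusted p = 2.29e-04). At 24 h it had 267.2, 251.7 and 259.4 CPM, above every control, and rose by 0.24 ± 0.06 on the log2 scale (edgeR adjusted p = 0.0179), a call lost without DPI 24 h replicate 1 (0.0736) or replicate 3 (0.0662). Unlike Loxl1 and Loxl2, Lox was higher at 72 h than at 24 h, by 0.33 ± 0.06 (edgeR adjusted p = 0.0041), with no overlap between the 2 times.

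Loxl3, a lysyl oxidase of low level here, passed against control at neither time. It had 36.8, 37.5 and 36.9 CPM at 24 h, against 31.3, 30.2 and 35.8 CPM in controls, with a log2 fold change of 0.19 ± 0.07 that did not pass (edgeR adjusted p = 0.0836) but passed without control replicate 3 (0.0273). At 72 h it had 32, 30.3 and 31.7 CPM, which overlapped the controls (edgeR adjusted p = 0.77). Relative to 24 h, the 72 h level was lower by a log2 difference of -0.24 ± 0.08 (edgeR adjusted p = 0.0416), and that call was lost when any of the 6 treated libraries was left out. Loxl4, the remaining lysyl oxidase gene of the mouse and not among the 10, had 200, 216.2 and 202.2 CPM at 24 h, 147.0, 129.2 and 140.0 CPM at 72 h and 167.8, 138.6 and 168.4 CPM in controls. It rose at 24 h (log2 0.38 ± 0.08, edgeR adjusted p = 0.0075), did not pass at 72 h (-0.19 ± 0.08, adjusted p = 0.215), and was lower at 72 h than at 24 h (-0.57 ± 0.08, adjusted p = 7.41e-04).

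The make-up of each class, as shares of its summed CPM per kb, followed from these changes and is given as a description. Among the alpha chains P4ha2 made up 18.5 to 20.0% at 24 h, 23.2 to 24.1% at 72 h and 19.6 to 20.8% in controls. The 72 h range lay above the others. By the longest transcript as length these shares were 31.2 to 33.4%, 37.7 to 38.8% and 32.9 to 34.5%. Among the lysyl hydroxylases Plod3 made up 43.5 to 44.3% at 24 h, 37.5 to 39.1% at 72 h and 45.0 to 47.1% in controls, and Plod2 made up 36.8 to 40.1%, 41.7 to 44.5% and 36.2 to 38.6%. Plod2 thus exceeded Plod3 per kb in the 3 libraries at 72 h and in none of the other 6.

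Among Lox, Loxl1, Loxl2 and Loxl3, Lox made up 30.2 to 32.3% at 24 h, 43.7 to 46.8% at 72 h and 38.5 to 42.2% in controls. Loxl2 made up 20.0 to 21.9% at 24 h, 15.7 to 17.9% at 72 h and 11.9 to 14.2% in controls. Loxl1 made up 41.8 to 44.1% at 24 h, 31.7 to 35% at 72 h and 38.5 to 43.6% in controls. The sum of the 4 genes was 173 to 174 CPM per kb at 24 h, 147 to 158 at 72 h and 111 to 115 in controls. That of the 3 alpha chains was 53.1 to 57.2 CPM per kb at 24 h, 95.4 to 103 at 72 h and 61.4 to 63.9 in controls. The sum of the 4 oxidases was thus highest at 24 h and the alpha chain sum highest at 72 h. With Loxl4 added, the oxidase sum was 221 to 226 CPM per kb at 24 h, 177 to 193 at 72 h and 143 to 155 in controls. Loxl4 then made up 21.5 to 22.7%, 17.3 to 18.2% and 22.9 to 25.9% of it. Lox made up 23.3 to 25.3%, 35.8 to 38.3% and 29.7 to 31.4%.

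**Figure D3:**
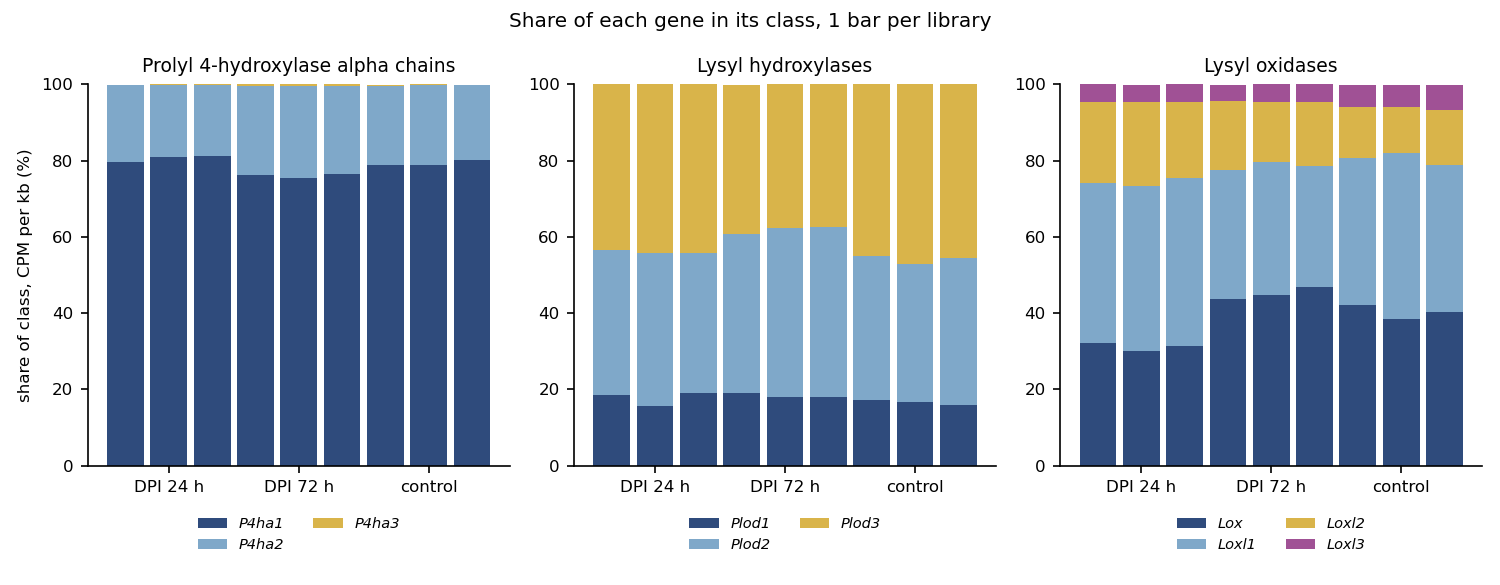
Share of each gene in the summed CPM per kb of its class (percent), with 1 bar per library and 3 libraries for each of DPI 24 h, DPI 72 h and control. P4ha1 made up 75.4 to 81.3% of the alpha chains in all 9 libraries, and 60.6 to 68.5% by the longest transcript as length. Lox made up 43.7 to 46.8% of the lysyl oxidases shown at 72 h, against 38.5 to 42.2% in controls.

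The enzymes were set beside the chains they act on. Of 14 genes for collagen chains and elastic fibre proteins, 13 were tested, and 12 rose at 24 h and 0 fell by edgeR, also at an unadjusted p under 0.05. The median of their log2 fold changes was 0.77, against -0.0056 over all genes. After 72 h 10 rose and 0 fell relative to control, also 0 unadjusted, with a median of 0.63. Between 72 h and 24 h 1 was higher and 2 lower, with a median of -0.033. Among all genes tested, 24.7% passed at 24 h against control, 8.56% at 72 h against control and 21.3% at 72 h against 24 h. Eln, the elastin gene, had at most 4 counts in any library. Col1a1, the main chain of collagen I, averaged 4169 CPM at 24 h, 3500 CPM at 72 h and 1705 CPM in controls, with log2 fold changes from control of 1.29 ± 0.09 and 1.04 ± 0.09 (edgeR adjusted p = 2.78e-06 and 2.99e-05). Col1a2, its partner chain, rose by 0.65 ± 0.06 at 72 h (adjusted p = 7.41e-05). Col5a3, a minor fibrillar chain, rose by 1.80 ± 0.11 at 24 h (adjusted p = 1.21e-06) and was lower at 72 h than at 24 h (-1.34 ± 0.10, adjusted p = 8.36e-06). Col6a3 was higher at 72 h than at 24 h (0.74 ± 0.16, adjusted p = 0.0069), and Col3a1 rose at 24 h (1.66 ± 0.31, adjusted p = 0.0027) from a low level.

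Relative to Col1a1, P4ha1 and Lox were scarcer after DPI at both times. P4ha1 stood at 6.90 to 7.30% of Col1a1 per kb at 24 h, 12.6 to 15.9% at 72 h and 17.6 to 20.8% in controls. Lox stood at 8.05 to 9.10% at 24 h, 11.2 to 14.2% at 72 h and 17.5 to 17.7% in controls. Neither ratio overlapped between groups, and both had their lowest values at 24 h. These ratios are to Col1a1 only, which rose by 1.04 in log2 units at 72 h against control. P4ha1 rose by 0.62 there and Lox by 0.57. Col1a2 rose by 0.65, and the median of the collagen and elastic fibre genes tested was 0.63.

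Of 28 other genes for modification, folding, secretion and processing of collagen, 24 were tested. Of these, 7 rose and 2 fell at 24 h, and the median of the list was -0.0066 in log2 units. Relative to control 5 rose at 72 h and 0 fell by edgeR, although Loxl4 and Tmem38b were lower at unadjusted p = 0.047 and 0.0069. The median was 0.085 there, and at 72 h against 24 h 3 were higher and 4 lower, with a median of 0.042. Over all genes tested 24.7% passed at 24 h, 8.56% at 72 h and 21.3% at 72 h against 24 h. Pcolce, which enhances removal of the C-propeptide, was 2.08-fold higher at 24 h than in controls (log2 1.06 ± 0.06, edgeR adjusted p = 8.28e-07) and lower at 72 h than at 24 h (-0.92 ± 0.06, adjusted p = 2.24e-06). The N-propeptidase genes Adamts14 and Adamts2 rose at 24 h by 0.57 ± 0.07 and 0.47 ± 0.08 (adjusted p = 2.03e-04 and 0.0021), and Adamts14 also rose at 72 h by 0.49 ± 0.07 (adjusted p = 0.0012). The prolyl 3-hydroxylase gene P3h3 fell by 0.74 at 24 h (SE 0.09, adjusted p = 1.52e-04). At 72 h P3h3 was 0.80 ± 0.09 and its partner P3h4 0.46 ± 0.07 above the 24 h level (adjusted p = 8.23e-05 and 5.94e-04).

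Other partners had smaller changes. Creb3l1, a transcription factor for secretory and collagen genes, and Pcolce2 rose at 72 h by 0.45 ± 0.08 and 0.46 ± 0.10 (edgeR adjusted p = 0.0066 and 0.0144). Serpinh1, the collagen chaperone, was higher at 72 h than at 24 h by 0.22 ± 0.06 (adjusted p = 0.0247) and passed against control at neither time (adjusted p = 0.49 at 24 h and 0.15 at 72 h). Crtap and P3h1, which form the prolyl 3-hydroxylase complex, and Colgalt1, which attaches galactose to hydroxylysine, had no call in any of the 3 comparisons. Their log2 differences lay between -0.12 and 0.17.

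Hypoxia targets outside the family and other oxygen-dependent hydroxylases moved as follows. Of 10 hypoxia targets, 1 rose and 6 fell at 24 h, and their median in log2 units was -0.46. Relative to control 7 rose at 72 h and 0 fell (0 unadjusted as well), with a median of 0.76, and at 72 h against 24 h 9 were higher and 1 lower, with a median of 1.28. The shares passing over all genes tested were 24.7%, 8.56% and 21.3% in these 3 comparisons. The list and the members were chosen with earlier results known, so the counts of the list are a description. Ndrg1 fell by 1.22 at 24 h (SE 0.07, edgeR adjusted p = 6.98e-07), and Vegfa fell by 0.88 (SE 0.06, adjusted p = 5.12e-06). Car9, a carbonic anhydrase, and Pdk1, a kinase that restrains pyruvate oxidation, rose at 72 h by 2.63 ± 0.14 and 1.25 ± 0.07 (adjusted p = 1.74e-06 and 2.19e-06). Pdk1 and Ndrg1 were higher at 72 h than at 24 h by 1.77 ± 0.07 and 1.45 ± 0.07 (adjusted p = 1.67e-07 and 3.40e-07).

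Among 7 genes for other oxygen-dependent hydroxylases and ascorbate transport, 0 had a call at 24 h by edgeR, and the smallest unadjusted p was 0.0542, for Egln3. After 72 h 2 rose and 0 fell relative to control, and at 72 h against 24 h 3 were higher. Of all genes tested, 24.7%, 8.56% and 21.3% passed in the same 3 comparisons. Egln1 and Egln3, the prolyl hydroxylases that mark hypoxia-inducible factors for degradation, rose at 72 h by 0.79 ± 0.06 and 1.37 ± 0.12 (edgeR adjusted p = 1.26e-05 and 3.96e-05). Their 72 h levels were above those at 24 h by 0.82 ± 0.06 and 1.63 ± 0.12 (adjusted p = 3.83e-06 and 5.56e-06).

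**Figure D4:**
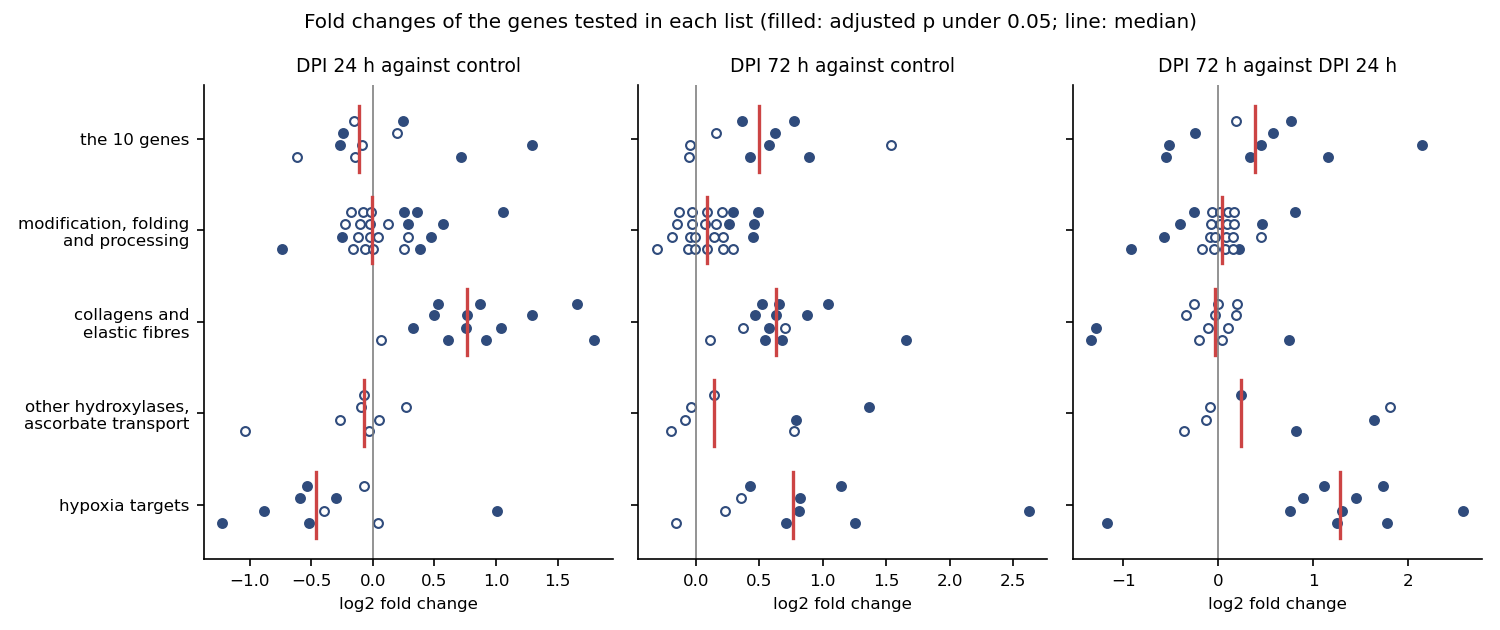
Log2 fold change of each gene tested (points; filled where the edgeR adjusted p was under 0.05) in 5 gene lists, with the list median (line), for the 3 comparisons, and each panel has its own axis. The median of the 10 genes was -0.12, 0.50 and 0.39 in the panels from left to right, that of collagens and elastic fibre genes 0.77, 0.63 and -0.033, and that of hypoxia targets -0.46, 0.76 and 1.28.

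The genes whose profile over the 9 libraries was most like that of each member were found among 9907 genes, as the smallest root mean square distance between log2 CPM values, each centred on its own control mean. For P4ha2 these were Pgk1, a glycolytic kinase, and Cd248, at distances of 0.10 and 0.11. For P4ha1 they were the glycolytic gene Tpi1 and Arhgap29, at 0.099 and 0.10. For P4ha3 they were Pdk1 and Egln3, at 0.41 and 0.45, wider than for any other member. P4ha3 had only 3 to 27 counts per library, so its profile and nearest genes are uncertain. Hmgcs1, a gene of sterol synthesis, was nearest to Loxl2, at 0.13, and Socs5 and Fam107b were nearest to Loxl1, at 0.061 and 0.068. Fosl2 and Klf4 were nearest to Lox, at 0.071 and 0.078. Ntn4 and Tspan14 were nearest to Plod1, at 0.079 and 0.083, Nptxr and Arhgap29 to Plod2, at 0.047 and 0.080, Afg3l1 and Edem1 to Plod3, at 0.040 and 0.045, and Rnf44 and Wwc1 to Loxl3, at 0.030 and 0.043. Members with small changes have small distances to many genes.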

How the data were processed

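RNA of mouse adult fibroblasts was sequenced in 9 libraries on an Illumina instrument, per the labels' protocols. The authors deposited whole-number counts per Ensembl gene. Trim Galore and cutadapt, the aligner STAR, RSEM, edgeR and limma, and the build GRCm38, are listed per the submitters' processing notes. Their settings, the annotation release, the strand setting and any rounding were not stated in any source at hand. The deposited table called normalized was not used, since it held the same counts. Groups follow the treatment labels. Symbols, places and lengths came from GENCODE M21 (GRCm38), and 191 IDs with 0.0349% of counts had no symbol. Promoter windows came from RefSeq (GRCm38.p6).

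Genes were filtered with filterByExpr, scaled by TMM and fitted in edgeR 4.0.16 (glmQLFit, glmQLFTest, R 4.3.3) with all 9 libraries, 1 mean per group. P-values are two-sided and adjusted by Benjamini-Hochberg over 14088 genes, with a threshold of 0.05. Standard errors are the log2 fold change divided by the root of F. CPM values are TMM-normalized. The fit was run on counts simulated with the spread it had estimated, which checks the code and not whether the model suits these data. Libraries of a group differed beyond counting noise (chi-square per degree of freedom 3.62 to 31.3). Values were recomputed with DESeq2 1.42.0, limma voom 3.58.1, other filters and scalings, the libraries of a single comparison, the replicate number as a block, 1 library omitted at a time, a threshold of 0.01 and another gene length. Named partners were those set by rule plus the 4 (partners) or 2 (other lists) with the smallest p in each comparison. Genes of like pattern had a mean of at least 5 CPM and a count in every library, and 1 of them is not reported here. The members and lists were chosen with earlier results of these data known.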

Additional observations from a re-analysis of the deposited data

Results flagged for a closer look

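Levels at 72 h and 24 h of DPI differed in 8 of the 9 genes other than P4ha3 (5 higher, 3 lower) by edgeR's test, against 21.3% of all genes tested. The log2 difference, 72 h minus 24 h, was 1.16 for P4ha2, 0.77 for P4ha1, 0.58 for Plod2, 0.44 for Plod1 and 0.33 for Lox. It was -0.56 for Loxl1, -0.52 for Loxl2 and -0.24 for Loxl3. The controls enter this test through the spread, the TMM scaling and the choice of genes tested. P4ha2 is the gene among these that passed in opposite directions, lower at 24 h and higher at 72 h than in controls. P4ha3 also passed, at 2.15, but it reached the count minimum only through the 72 h libraries, with 73 counts at 72 h and 17 at 24 h, so its call is given as a description.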

How the results depend on the processing

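Over 17 alternatives, 487 values of the 10 genes kept their direction or stayed without a call, 15 lost their call, 7 gained one and 0 reversed. Calls of P4ha1, P4ha2, Loxl1 and Loxl2 were kept under every one of these alternatives in each comparison where they had one. Of the lost calls, 9 were of Loxl3 at 72 h against 24 h (adjusted p 0.0641 to 0.139), among them DESeq2 (0.0659), no filter on low counts (0.102) and the replicate block. With only the libraries compared, 774 genes passed at 72 h against control and 4660 at 72 h against 24 h. At an adjusted p under 0.01, 1904 genes passed at 24 h, 627 at 72 h and 1590 at 72 h against 24 h, and 1 of the 10 genes was lower at 24 h. Among the genes higher than in controls, Lox at 24 h (edgeR adjusted p = 0.0179) and Plod1 at 72 h (0.0172) did not pass at 0.01. With 1 library left out, 736 to 1965 genes passed at 72 h against control and 1953 to 4729 at 72 h against 24 h, and 1 to 3 of the 10 genes were lower at 24 h. In these fits 2 to 4 of the 10 were higher than in controls at 24 h and 5 to 7 at 72 h. The stricter threshold lowers counts by construction, and the cause of the other shifts was not tested.

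With the replicate number as a block, 3000, 911 and 2533 genes passed at 24 h, at 72 h and at 72 h against 24 h, against 3478, 1206 and 3001 without it, and Loxl3 at 72 h against 24 h lost its call (adjusted p = 0.0641). Libraries with the same number did not deviate together (correlations from -0.112 to -0.00439), and none correlated best with its own number. Length by the longest transcript moved 16 of 30 levels by more than 1 SD. Depth limits P4ha3, with 3 to 27 counts per library.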

Other observations

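Adm, the gene of the hormone adrenomedullin, went against the other hypoxia targets and was chosen after its values were seen. It had 6.06, 5.36 and 4.57 CPM at 24 h, 3.04, 1.98 and 2.06 CPM at 72 h and 1.93, 2.92 and 3.07 CPM in controls. It rose at 24 h by 1.01 ± 0.25 on the log2 scale (edgeR adjusted p = 0.0146) and was lower at 72 h than at 24 h (-1.17 ± 0.26, adjusted p = 0.0082). Slc23a2, an ascorbate transporter gene, also chosen after its values were seen, was higher at 72 h than at 24 h (0.24 ± 0.07, adjusted p = 0.0356), with 77.2, 72.5 and 78.8 CPM at 72 h, against 66.1, 64.2 and 63.8 CPM at 24 h.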
